A study of Bos taurus with 2 samples.

Results

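miR-143 and miR-145 are 2 microRNAs (miRNAs, short RNAs that guide the silencing of matching messenger RNAs) whose hairpins lie side by side in the genome, and they were followed here in liver of Angus bulls from a low and a high residual feed intake (RFI) line. Both hairpins give a 5p and a 3p arm, so the members were 4 mature arms out of 1063 groups of small RNA sequences with at least 100 reads. The adapter was cut from every read, inserts of 18 to 26 nt were kept, and an insert was assigned to an arm when it held bases 2 to 18 of that arm with its 5′ end within 2 nt of the arm's start. No table of bovine miRNA sequences was used: each arm was found by its known seed (bases 2 to 8) and is represented by the most abundant insert with that seed, so the start is that insert's start and not an annotated one. The pair was chosen by its measured levels in the same 2 libraries, so the levels and ratios are descriptions and carry no test.

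RFI is the difference between the feed an animal eats and the feed predicted from its weight and gain, so low RFI marks feed-efficient animals. The low RFI library was made from a pool of liver RNA from 13 Angus bulls of the low RFI line, and the high RFI library from a pool of 13 Angus bulls of the high RFI line. All bulls were 13 months old at biopsy, all came from lines divergently selected for RFI, and each gave 1 ug of RNA to its pool. With 1 pooled library per line there is no replicate check, the share of any single bull in a pool is unknown, and line, pool and library cannot be told apart. Intervals in parentheses are 95% exact intervals that cover counting error only, since PCR copies of a molecule are counted as separate reads.

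The low RFI library held 12196461 reads, of which 44.6% were inserts of 18 to 26 nt, and the high RFI library 14117842 reads, of which 50.01% were. Reads with no adapter made up 41.0% of the low RFI library and 31.1% of the high RFI library. A count of 3 reads, the most that a true count is likely to be when none is seen, came to 0.552 per 1000000 inserts in the low RFI pool and 0.425 in the high RFI pool. Most groups leaned toward low RFI on this scale: the median log2 ratio of low over high RFI was 0.77 over the 1063 groups.

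The primary transcript that carries miR-143 and miR-145 is made mainly in smooth muscle, pericytes and fibroblasts, where the serum response factor drives it and both miRNAs help to keep the contractile state. In mouse and human, miR-145 targets the transcription factors KLF4 and KLF5, and miR-143 targets ELK1. In mouse liver, a rise of miR-143 is known to lower the lipid-binding protein ORP8 and to dampen insulin signalling. In the RefSeq gene table of assembly ARS-UCD2.0, MIR143 and MIR145 were next to each other on 1 chromosome with no listed gene between them, flanked by the lncRNA LOC132345768 and the cytokine gene IL17B on the MIR143 side and by the kinase gene CSNK1A1 on the MIR145 side.

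The 4 arms are shown because every count below was made against them. They were read from the deposited tags, with T for U, and the capitals mark the seed, the bases that select targets.
miR-143-3p: tGAGATGAagcactgtagct
miR-143-5p: gGTGCAGTgctgcatctctgg
miR-145-5p: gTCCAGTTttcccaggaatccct
miR-145-3p: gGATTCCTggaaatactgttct
The 4 seeds differ from each other, so the cluster partners share no seed. For miR-145-3p the start shown had 110 reads in the low RFI pool and 46 in the high RFI pool. A start 2 nt inside, which moves the seed, had 98 and 165 reads and was the more abundant over both libraries. Of the inserts that began 1 nt before one of these seeds, 98.6% held the rest of the core for miR-143-3p, 95.04% for miR-143-5p, 98.8% for miR-145-5p and 68.4% for miR-145-3p. Folded against each other, the arms of miR-143 formed 16 base pairs at -26.1 kcal/mol and the arms of miR-145 formed 17 base pairs at -23.2 kcal/mol.

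The cluster took a smaller share of the low RFI library. Its 4 arms together gave 718182 reads in the low RFI pool, 13.2% of the inserts, against 1869688 reads in the high RFI pool, 26.48% of the inserts. Nearly all of these were miR-143-3p, which ranked 1 of 1063 groups in both libraries. The members did not move as a block: miR-143-3p was lower in low RFI, while the other 3 arms were higher on the same scale. On that scale 55.3% of all 1063 groups were also higher in low RFI by 1.5-fold or more. The median log2 ratio was 0.77, with miR-145-5p near it at 0.82, miR-143-5p below at 0.41 and miR-145-3p above at 1.34. miR-143-5p was higher only without TMM or DESeq2 factors, which estimate 1 scaling factor per library from all groups. The same held for miR-145-3p when starts up to 6 nt inside the arm were counted, at 0.36 against shifts of -0.66 and -0.69.

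miR-143-3p had 687701 reads in the low RFI pool, or 126541 counts per 1000000 inserts of 18 to 26 nt (CPM), and 1847315 reads in the high RFI pool, or 261622 CPM. The low RFI level was 0.484 times the high RFI level (0.482 to 0.485), a log2 ratio of -1.05. Over all 1063 groups, 26.2% were lower in low RFI by 1.5-fold or more and 55.3% higher in CPM, a balance that the scaling sets: 347 groups were lower and 349 higher with TMM factors, and 351 lower and 338 higher with DESeq2 size factors. Among the 116 groups with at least 1000 reads in each library, 12.9% were lower by 1.5-fold or more and 51.7% higher, with a median log2 ratio of 0.60. The next group in abundance, miR-30a-5p, had 97329 CPM in the low RFI pool and 119011 in the high RFI pool.

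miR-145-5p, the main arm of the partner hairpin, had 30216 reads in the low RFI pool, or 5559.9 CPM, and 22174 reads in the high RFI pool, or 3140.35 CPM. Its low RFI level was 1.77 times the high RFI level (1.74 to 1.80), a log2 ratio of 0.82, against the median of 0.60 of the groups with at least 1000 reads in each library. It ranked 27 in the low RFI pool and 28 in the high RFI pool. In low RFI its level lay between those of miR-191-5p at 5582 and miR-23-3p at 5241 CPM. In high RFI it lay between those of miR-92a-3p at 3154 and miR-191-5p at 2939 CPM. The counting intervals overlapped with the neighbour above in each library, so miR-145-5p was not separated from miR-191-5p in the low RFI pool or from miR-92a-3p in the high RFI pool.

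The minor arms, often called passenger strands, were rare. miR-143-5p had 136 reads in the low RFI pool, or 25.0 CPM, and 133 reads in the high RFI pool, or 18.8 CPM, a ratio of 1.33 (1.04 to 1.70). With edgeR's TMM factors or DESeq2 size factors its log2 ratio of 0.41 became -0.25 and -0.28, so its direction depends on the scaling. miR-145-3p had 129 reads in the low RFI pool, or 23.7 CPM, and 66 reads in the high RFI pool, or 9.35 CPM, a ratio of 2.54 (1.87 to 3.47). That ratio rested on where the arm was taken to begin: a form starting 2 nt inside the arm, which lacks base 2 and so falls just outside the assignment rule, had 98 reads in the low RFI pool and 165 in the high RFI pool. Counting starts up to 6 nt inside the arm gave 228 reads in the low RFI pool and 231 in the high RFI pool, a ratio of 1.28 (1.06 to 1.55). That is a log2 ratio of 0.36, smaller in size than the shifts of -0.66 with TMM and -0.69 with DESeq2 factors. Counted so, the direction of miR-145-3p also depends on the scaling.

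**Figure D1:**
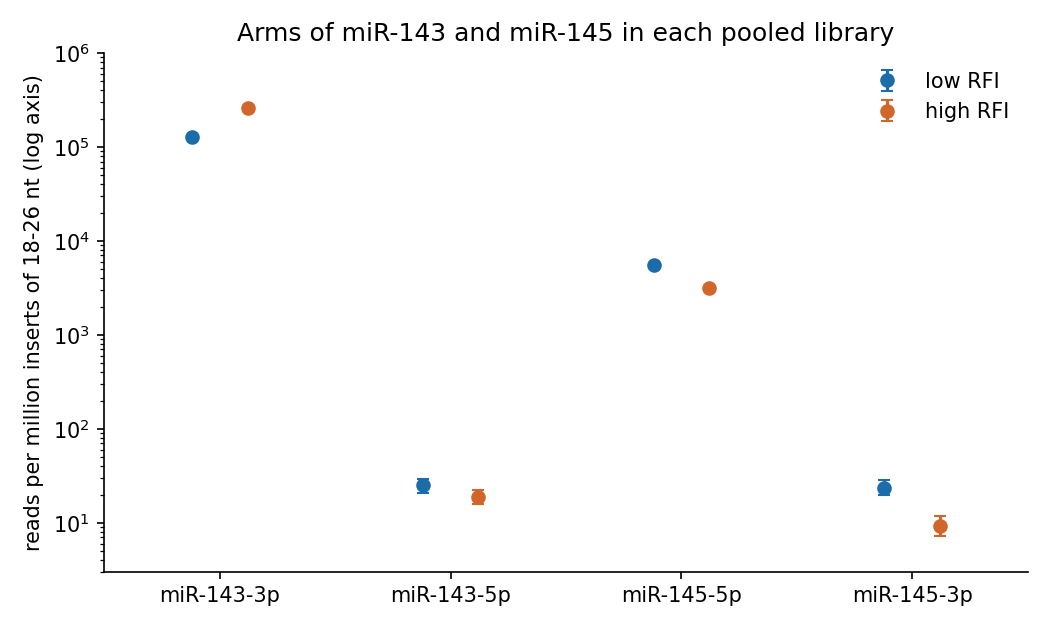
Reads per 1000000 inserts of 18 to 26 nt (log axis) for the 4 arms in the low RFI pool (left of each pair) and the high RFI pool (right), 1 library each, with 95% counting intervals that are narrower than the points for the main arms. miR-143-3p was lower in low RFI (126541 against 261622), and miR-145-5p was higher in low RFI (5559.9 against 3140.35).

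**Figure D2:**
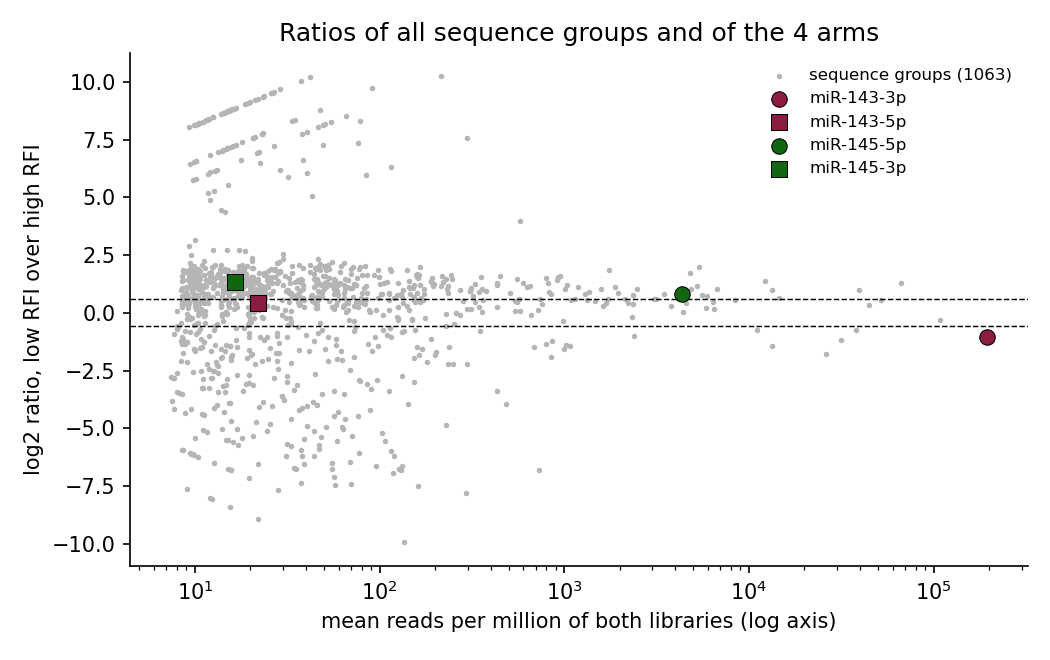
Log2 ratio of low over high RFI against the mean CPM of both libraries (log axis) for 1063 sequence groups in grey, with the 4 arms on top and dashed lines at 1.5-fold. miR-143-3p is the rightmost point and lies below the lower line at -1.05, whereas miR-145-5p lies above the upper line at 0.82.

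The ratio between the partners needs no scaling, because both are counted in the same library. In low RFI there were 22.8 miR-143-3p reads for each miR-145-5p read (22.5 to 23.02), and in the high RFI pool there were 83.3 (82.2 to 84.4). The balance in the high RFI pool was thus 3.66 times that in the low RFI pool. For the minor arms the ratio depended on the start taken for miR-145-3p. There were 1.05 miR-143-5p reads for each miR-145-3p read in the low RFI pool (0.822 to 1.35) and 2.02 in the high RFI pool (1.49 to 2.75), but with starts up to 6 nt inside the arm counted there were 0.596 (0.479 to 0.741) and 0.576 (0.462 to 0.716). The ratio of the main arms was then 22.8 in the low RFI pool and 83.6 in the high RFI pool. Because a read of each arm is ligated and amplified with its own efficiency, these ratios compare libraries and do not give molar amounts of the 2 miRNAs.

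Taking miR-143-3p out of the denominator made the difference of the partner smaller without turning it. Per 1000000 inserts other than miR-143-3p, miR-145-5p came to 6365 in the low RFI pool and 4253 in the high RFI pool, a ratio of 1.497. With TMM factors the log2 ratio of miR-145-5p was 0.16 and that of miR-143-3p was -1.71, a shift of -0.66 that applies to every group. With DESeq2 size factors the values were 0.14 and -1.73, with a shift of -0.69. Under these 2 scalings groups at least 1.5-fold higher in low RFI made up 50.1% and 49.1% of those past 1.5-fold in either direction, against 67.8% in CPM. miR-143-3p stayed below 0 and miR-145-5p stayed above 0 under all 12 alternatives tried. Several of these only count the same reads in another way. With the GC trend removed, miR-145-5p at 0.85 lay below the median of all groups, which was 0.90 on that scale.

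Base composition moved with the ratios. The 357 groups within 5 points of the 45% GC content of miR-143-3p had a median log2 ratio of 0.46, and 30.3% of them were at least 1.5-fold lower in low RFI. The 319 groups within 5 points of the 52.2% GC content of miR-145-5p had a median of 0.91, and 64.3% of them were higher in low RFI by 1.5-fold or more. The trend with GC content over all groups was removed and the median of all groups was added back. The log2 ratio was then -0.54 for miR-143-3p and 0.85 for miR-145-5p, on a scale where the median of all groups was 0.90. These values are therefore not distances from 0. The trend itself was 0.26 at the GC content of miR-143-3p, whose ratio was -1.05. It was 0.74 at the GC content of miR-145-5p, whose ratio was 0.82. The part of GC content in either result was not tested further.

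Arm choice was one-sided in both hairpins. miR-143-5p made up 0.0198% of the reads of both miR-143 arms in the low RFI pool (0.0166% to 0.0234%) and 0.00720% in the high RFI pool (0.00603% to 0.00853%). That is 5057 miR-143-3p reads for each miR-143-5p read in the low RFI pool and 13889.6 in the high RFI pool. miR-145-3p made up 0.425% of the reads of both miR-145 arms in the low RFI pool (0.355% to 0.505%) and 0.297% in the high RFI pool (0.230% to 0.377%). The intervals of miR-143 did not overlap between the libraries, and those of miR-145 overlapped with the start shown. The direction for miR-145 turned when starts up to 6 nt inside the arm were counted, with 0.748% in the low RFI pool (0.655% to 0.852%) and 1.03% in the high RFI pool (0.902% to 1.17%). Counted so, the intervals of miR-145 did not overlap either. How often such intervals are apart in other hairpins was not counted.

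The 5′ end, which sets the seed, was fixed in both main arms. miR-143-3p began at its main start in 99.4% of reads in the low RFI pool and 99.5% in the high RFI pool, and miR-145-5p in 99.8% and 99.7%. The next start of miR-143-3p was 1 nt upstream, with 3506 reads in the low RFI pool and 7056 in the high RFI pool, and the added base was C in 99.9% and 99.8% of them. A start 1 nt inside had 745 reads in the low RFI pool and 1825 in the high RFI pool. Inserts starting 3 nt inside, which the assignment rule leaves out, had 1453 reads in the low RFI pool and 5934 in the high RFI pool, a log2 ratio of -1.65. No start therefore held more than 1% of the arm beside the main one.

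The 3′ ends varied. miR-143-3p had 2 preferred lengths with a gap between them: 20 nt made up 60.7% of its reads in the low RFI pool and 61.9% in the high RFI pool, 21 nt 1.92% and 1.36%, and 22 nt 25.5% and 26.1%. miR-145-5p had 1 preferred length: 23 nt made up 56.5% of its reads in the low RFI pool and 52.1% in the high RFI pool, and 22 nt 23.2% and 28.9%. The 24 nt inserts of miR-145-5p made up 5.26% in the low RFI pool and 4.09% in the high RFI pool. Mean insert length was 20.77 nt in the low RFI pool and 20.73 nt in the high RFI pool for miR-143-3p, and 22.50 nt and 22.41 nt for miR-145-5p. Longer inserts in the low RFI pool were common to the library: 93 of the 116 groups with at least 1000 reads in each library, or 80.2%, had a longer mean in the low RFI pool, with a median difference of 0.0591 nt.

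**Figure D3:**
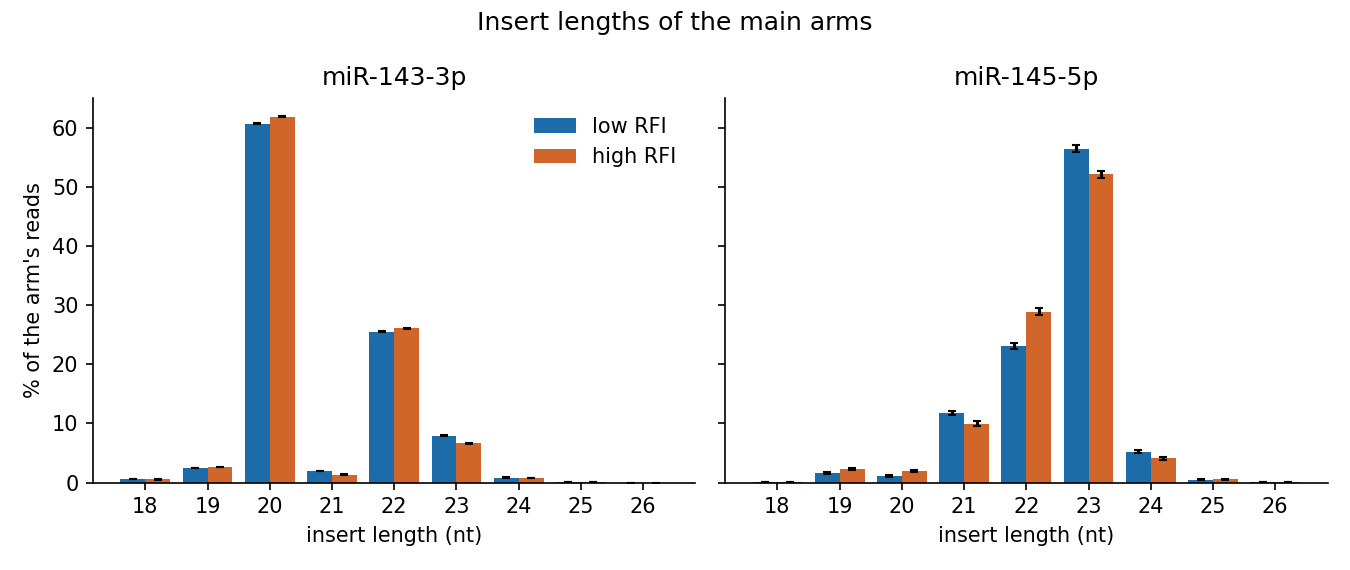
Share of the reads of miR-143-3p (left panel) and miR-145-5p (right panel) by insert length in nt, low RFI left of high RFI at each length, with 95% counting intervals. miR-143-3p peaks at 20 nt (60.7% and 61.9%) with a second peak at 22 nt, and miR-145-5p peaks at 23 nt (56.5% and 52.1%).

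The 22 nt inserts of miR-143-3p came in 2 main forms that differ in the last base, and their balance differed between the libraries. The forms are shown because the ratio of low over high RFI moved with this end, and the capitals again mark the seed.
20 nt form: tGAGATGAagcactgtagct
22 nt form ending in T: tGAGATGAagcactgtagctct
22 nt form ending in G: tGAGATGAagcactgtagctcg
23 nt form ending in GT: tGAGATGAagcactgtagctcgt
23 nt form ending in TT: tGAGATGAagcactgtagctctt
19 nt form: tGAGATGAagcactgtagc
The 20 nt form had 74440.7 CPM in the low RFI pool and 157952 in the high RFI pool, a log2 ratio of -1.09. The 22 nt form ending in T had 18739 CPM in the low RFI pool and 44708 in the high RFI pool, a log2 ratio of -1.25. The 22 nt form ending in G had 12645 CPM in the low RFI pool and 21664 in the high RFI pool, a log2 ratio of -0.78. All 3 were lower in low RFI, the form ending in G by less than the others. The 23 nt form ending in GT had 2855 CPM in the low RFI pool and 4075 in the high RFI pool, the form ending in TT had 1827 and 4749, and the 19 nt form had 2579 and 5893.

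Over all inserts that ran on with C at base 21, base 22 was T in 51.9% and G in 46.4% of those that reached it in the low RFI pool, against 61.7% and 36.4% in the high RFI pool. There were thus 1.12 inserts with T for each with G at that base in the low RFI pool (1.11 to 1.13) and 1.69 in the high RFI pool (1.68 to 1.70). Inserts with G at bases 22 and 23 had 2604 CPM in the low RFI pool and 2505 in the high RFI pool, a ratio of 1.04 (1.02 to 1.06). They too were lower in low RFI per 1000000 deposited reads and with TMM or DESeq2 factors. Without the hairpin sequence, bases copied from the genome and bases added afterwards could not be separated.

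miR-143-3p had 78 insert forms with at least 100 reads over both libraries. Of these, 73 were lower in low RFI and 5 higher, and 54 of the 73 were lower by 1.5-fold or more. The log2 ratios lay between -1.78 and 0.36, with a median of -0.87. For 3 of the 5 higher forms the counting interval of the ratio held 1, and per 1000000 deposited reads 2 of the 78 forms were higher. Of the 5 forms higher in low RFI, 3 carried the GG end and 2 had A in place of the last T of the 20 nt form. The more abundant form with A, of 21 nt, had 413 CPM in the low RFI pool and 337 in the high RFI pool. No form reached 1.5-fold in that direction. With TMM or DESeq2 factors all 78 forms were lower in low RFI. In CPM, 26.2% of all 1063 groups were lower by 1.5-fold or more. The forms are variants of 1 arm counted in the same libraries, so they are not separate observations.

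miR-145-5p had 13 forms of at least 100 reads, all 13 higher in low RFI and 8 of them by 1.5-fold or more, whereas with TMM or DESeq2 factors 8 were higher and 5 lower. Their log2 ratios lay between 0.05 and 1.49, with a median of 0.83. Over all 1063 groups, 55.3% were higher in low RFI by 1.5-fold or more in CPM, with a median of 0.77. The main forms of miR-145-5p are nested ends of 1 sequence.
23 nt form: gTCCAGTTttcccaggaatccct
22 nt form: gTCCAGTTttcccaggaatccc
21 nt form: gTCCAGTTttcccaggaatcc
24 nt form: gTCCAGTTttcccaggaatccctt
The 23 nt form had 2959.6 CPM in the low RFI pool and 1523 in the high RFI pool, a log2 ratio of 0.96. The 22 nt form, 1 base shorter, had 1228 CPM in the low RFI pool and 873 in the high RFI pool, a log2 ratio of 0.49. The 21 nt form had 636 and 302 CPM, and the 24 nt form 239.9 and 106, with log2 ratios of 1.08 and 1.18. The fifth form by abundance, 23 nt with A as the last base, had 103 CPM in the low RFI pool and 75.8 in the high RFI pool, and the sixth, of 19 nt, had 67.2 and 54.2.

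**Figure D4:**
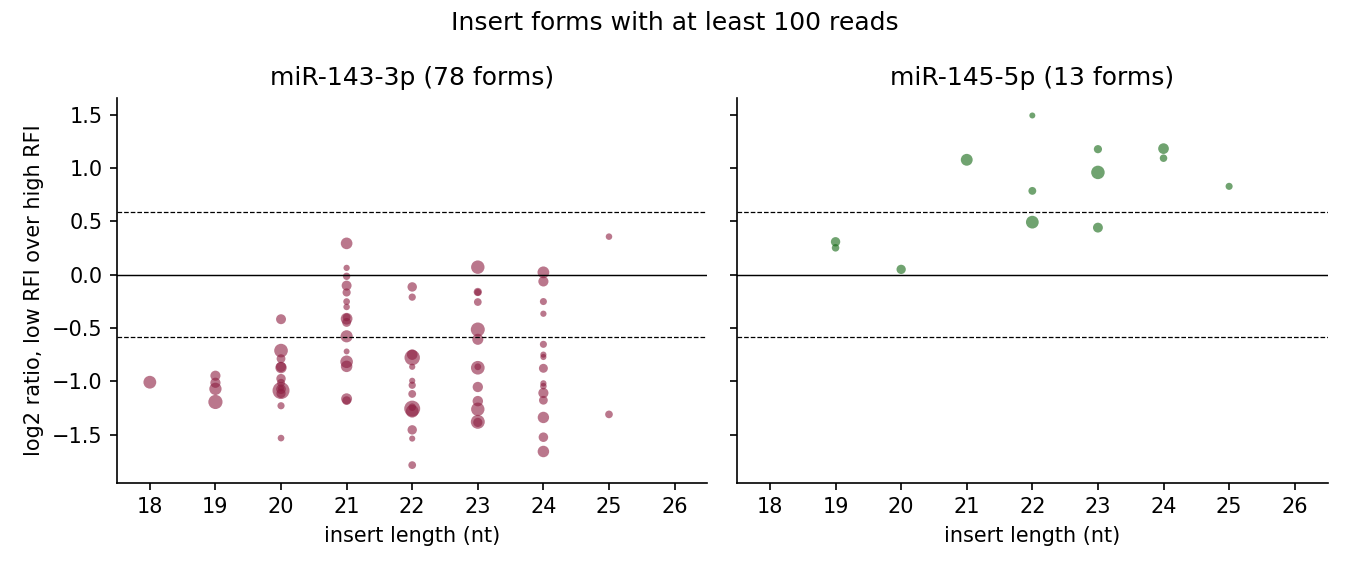
Log2 ratio of low over high RFI against insert length in nt for every form with at least 100 reads, miR-143-3p (78 forms) on the left and miR-145-5p (13 forms) on the right, with larger points for more reads and dashed lines at 1.5-fold. Most miR-143-3p forms lie below 0 (73 of 78) and all 13 miR-145-5p forms lie above 0 on this scale, against 8 of 13 with TMM or DESeq2 factors.

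Reads with 1 substitution in bases 2 to 18 were set apart from these counts. For miR-143-3p they came to 1.81% of the reads with or without a substitution in the low RFI pool and 1.86% in the high RFI pool. For miR-145-5p they came to 1.63% in the low RFI pool and 2.02% in the high RFI pool. The most frequent single change in miR-145-5p was A5C, counted from 1 at the 5′ end, at 0.303% in the low RFI pool and 0.566% in the high RFI pool. Pooled RNA from several bulls, sequencing errors and edited bases cannot be told apart in these reads.

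Since bulk liver mixes cell types, fewer mesenchymal cells and less of a miRNA per cell cannot be told apart. Summed levels of miRNAs known from other cells were therefore set beside the cluster; their part in the result was not tested. The 3 miRNAs of stellate cells and fibroblasts, the liver cells nearest in kind to those that make the cluster, summed to 5186 CPM in the low RFI pool and 4934 in the high RFI pool. Of these, miR-152-3p had 4449 in the low RFI pool and 4312 in the high RFI pool, miR-199-3p 586 and 559, and miR-214-3p 151 and 61.9. None of the 3 was lower in low RFI, and miR-214-3p was 2.43 times as high, whereas miR-152-3p and miR-199-3p lay below 0 per 1000000 deposited reads and with TMM or DESeq2 factors.

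The 3 endothelial miRNAs were all higher in low RFI by 1.5-fold or more, whereas with TMM or DESeq2 factors none passed 1.5-fold and miR-221-3p lay below 0. In CPM, 55.3% of all 1063 groups were higher by that fold. The median log2 ratio of all groups was 0.77, which was also the value of miR-126-3p. The endothelial list had a sum of 7105 CPM in the low RFI pool and 4177 in the high RFI pool. Nearly all of that sum was miR-126-3p, the main miRNA of endothelium, at 7031 and 4134, beside miR-221-3p at 46.7 and 30.2 and miR-222-3p at 26.9 and 12.9. The 4 bile duct miRNAs, of the miR-200 family, summed to 639 CPM in the low RFI pool and 329 in the high RFI pool, and all 4 were higher in low RFI, against 2 of 4 with TMM or DESeq2 factors. miR-200c-3p had 304 CPM in the low RFI pool and 168 in the high RFI pool, miR-200b-3p 271 and 107, miR-200a-3p or miR-141-3p, which share the key used to find them, 48.9 and 42.6, and miR-429-3p 15.5 and 12.2.

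The 4 hepatocyte miRNAs lay on both sides of 0 under the 5 scalings that use 1 factor per library, 2 on each. miR-122-5p, the defining miRNA of hepatocytes, had 94954 CPM in the low RFI pool and 39124 in the high RFI pool, and miR-885-5p had 670.3 and 222. miR-192-5p, which shares its core with miR-215, had 19470.3 in the low RFI pool and 43451 in the high RFI pool, and miR-802-5p had 119 and 259. The list summed to 115213 in the low RFI pool and 83057 in the high RFI pool, so the labelled tissue carries its defining miRNA in both libraries.

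Blood and muscle miRNAs also differed, beside 55.3% of all 1063 groups higher in low RFI by 1.5-fold or more in CPM and 26.2% lower. The 5 leukocyte miRNAs summed to 1862 CPM in the low RFI pool and 2513 in the high RFI pool, with 3 higher in low RFI and 2 lower. The lower ones were miR-146-5p at 864 in the low RFI pool and 1098 in the high RFI pool and miR-142-3p at 514 and 1197, and the higher ones included miR-150-5p at 271 and 121 and miR-223-3p at 117 and 51.8. With TMM or DESeq2 factors none of the 5 was higher by 1.5-fold or more, and 2 were lower by that fold. The 3 erythroid miRNAs did not move together: miR-451 had 1574 CPM in the low RFI pool and 3184 in the high RFI pool and miR-144-3p 2.21 and 13.7, whereas miR-486-5p was higher in low RFI at 467 and 193. Their sum of 2043 in the low RFI pool and 3391 in the high RFI pool was mostly miR-451. Of the 5 striated muscle miRNAs, 3 had at least 100 reads and all 3 were lower in low RFI: miR-1-3p had 579.6 CPM in the low RFI pool and 1567 in the high RFI pool, miR-206-3p 185 and 276, and miR-133-3p 116 and 137. Of these 3, only miR-1-3p was lower by 1.5-fold or more in CPM, against all 3 with TMM or DESeq2 factors. The list summed to 883 CPM in the low RFI pool and 1983 in the high RFI pool. miR-499-5p had 17 reads in the low RFI pool and 21 in the high RFI pool, and miR-208b-3p, specific to striated muscle, had 0 and 3 reads.

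**Figure D5:**
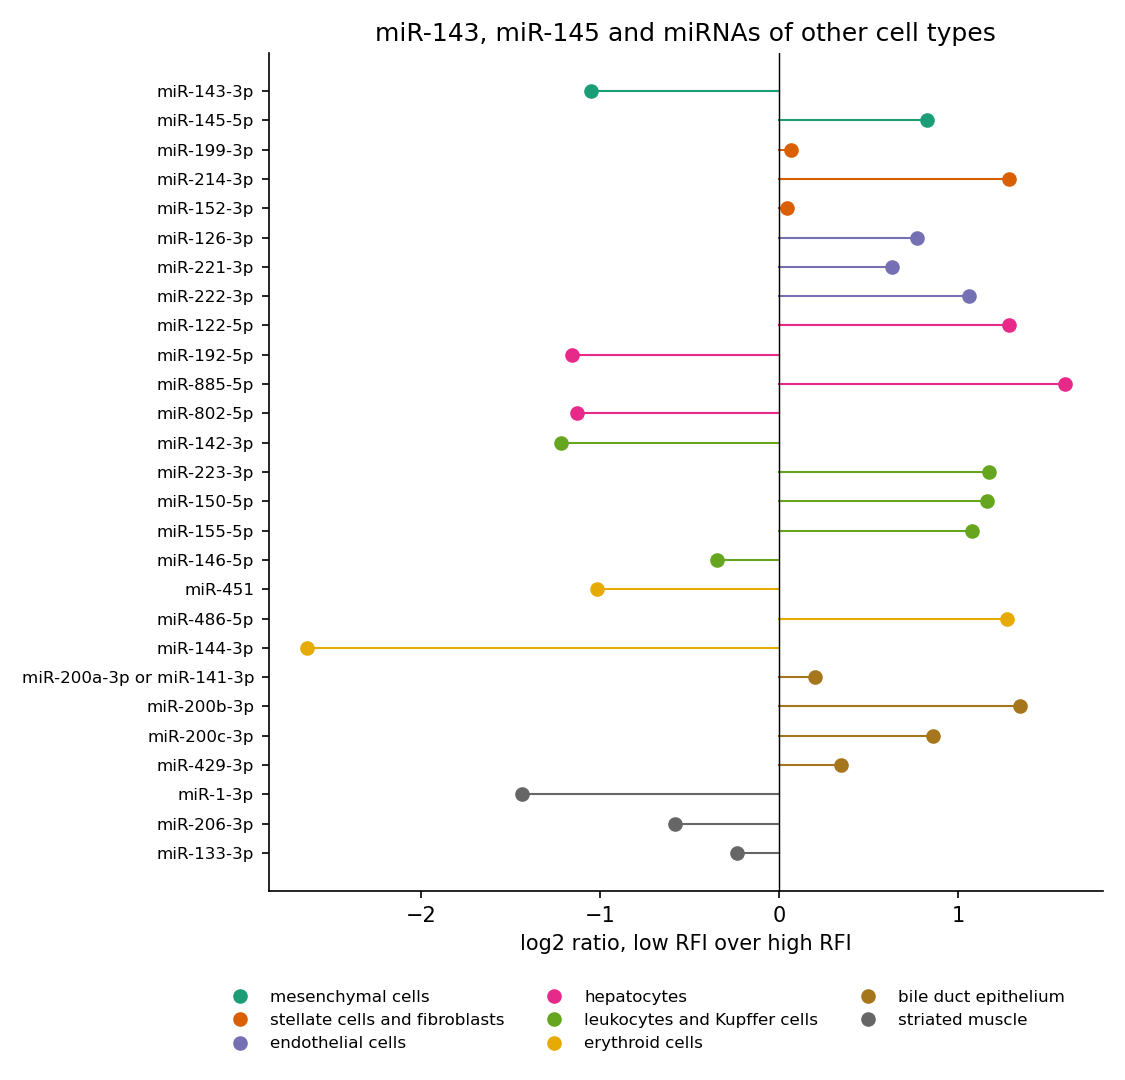
Log2 ratio of low over high RFI (horizontal axis) for the 2 main arms and for 25 miRNAs known from other cell types with at least 100 reads, coloured by cell type, 1 pooled library per line. The point labelled miR-200a-3p or miR-141-3p is the group with the miR-200a-3p sequence, and miR-141-3p is not shown. miR-143-3p lies at -1.05 and miR-145-5p at 0.82, and the hepatocyte, leukocyte and erythroid miRNAs also lie on both sides of 0.

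Among groups with at least 1000 reads in each library, the 3 with log2 ratios nearest to that of miR-143-3p were miR-451 at -1.02, miR-192-5p at -1.16 and miR-142-3p at -1.22. The 3 nearest to miR-145-5p were miR-194-5p at 0.82, miR-151-5p at 0.81 and let-7i-5p at 0.84. Likeness here is the distance between 2 log2 ratios over 2 libraries, on which many groups lie close to each other.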

How the data were processed

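Small RNA of pooled bovine liver was sequenced for 36 cycles on a Genome Analyzer IIx with the v1.5 small RNA protocol, per the labels' protocols. The authors deposited, for every 35 nt tag, a raw read count that still includes the adapter. The submitters' processing notes name Bowtie without saying what it did, and the sources used here give no genome build. Adapters were cut at the first place with an exact match of 6 nt and no more than 20% mismatches after it. Levels are counts per 1000000 inserts of 18 to 26 nt (CPM).

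The arms were found by seeds, and the other miRNAs by short sequence keys, both from general knowledge. Members and lists were chosen with earlier results of these data known. In place of the planned annotated arms, inserts were grouped by the member rule. There were 2360 such groups of 100 reads or more. Fragments of longer RNA (981 groups, in which 20% or more of the reads exceeded 26 nt or lacked an adapter) were removed, as were 316 groups that may be misread copies, differing by 1 base from a group 50 or more times as large. The 1063 left may hold RNAs other than miRNAs. Log2 ratios of groups add 0.5 reads.

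With 1 library per line no test was run. Intervals are exact (Clopper-Pearson, and conditional binomial for ratios). Named were both arms of both members, list miRNAs with at least 100 reads (at most 4 per list, with miR-141-3p added), the 6 most abundant forms of each main arm, the 3 groups nearest in ratio and the neighbours in abundance. Forms higher in low RFI were named after their values were seen. Scalings used edgeR 4.0.16 and DESeq2 1.42.0, and pairing used RNAduplex 2.7.2. The counting was tested on simulated data.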

Additional observations from a re-analysis of the deposited data

Results flagged for a closer look

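Reads with the core of a main arm but no adapter within the tag lie outside the inserts compared in the report. For miR-143-3p there were 9725 such reads in the low RFI pool and 33963 in the high RFI pool, which is 797 and 2406 per 1000000 deposited reads. For miR-145-5p there were 697 such reads in the low RFI pool and 431 in the high RFI pool, which is 57.1 and 30.5 per 1000000 deposited reads. They stood out because they are above the level that a count of 0 allows in data the comparisons do not use. Relative to all reads with the core they came to 1.39% in the low RFI pool and 1.81% in the high RFI pool for miR-143-3p, and 2.25% and 1.91% for miR-145-5p. Their direction between the lines was that of the inserts for both arms. No group has the 4 or more samples that a check for outlying samples needs.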

How the results depend on the processing

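No paired analysis was possible because each line has 1 pooled library and no result comes from a test; for the same reason no replicate could be left out. Over 12 alternatives the log2 ratio of low over high RFI lay between -1.73 and -0.54 for miR-143-3p and between 0.14 and 0.96 for miR-145-5p. For miR-143-3p it was -1.21 per 1000000 of all reads, -0.99 per 1000000 reads in groups, -1.71 with TMM factors, -1.73 with DESeq2 size factors, -0.54 with the GC trend removed, -1.09 for inserts identical to the main sequence and -1.02 without tags read once. For miR-145-5p the same settings gave 0.66, 0.88, 0.16, 0.14, 0.85, 0.96 and 0.85. The setting with the GC trend removed adds the median of all groups back, so the median of all groups was 0.90 there. miR-143-5p reversed to -0.25 with TMM and -0.28 with DESeq2 factors, which shift all ratios. The partner ratio for identical inserts was 25.2 in the low RFI pool and 103.7 in the high RFI pool. With inserts of 20 to 24 nt, the 20 nt share of miR-143-3p was 62.6% in the low RFI pool and 64.0% in the high RFI pool, and the 23 nt share of miR-145-5p was 57.8% and 53.7%. Groups at least 1.5-fold higher in low RFI numbered 2667 at a minimum of 10 reads, 116 at 1000, 349 with TMM and 338 with DESeq2 factors. Groups at least 1.5-fold lower numbered 1037 at a minimum of 10 reads and 66 at 1000. Both minimums apply to the reads of the 2 libraries together, and no share is given for them. The 116 higher groups are therefore not the 116 groups with at least 1000 reads in each library. Of the latter, 60 were higher and 15 lower by that fold. Counting starts up to 6 nt inside the arm, added after seeing the data, put miR-145-3p at 0.748% of its hairpin's reads in the low RFI pool and 1.03% in the high RFI pool. The planned arms from an annotation were replaced by sequence groups in the background and in the 4 settings computed over them. With 66 to 136 reads per library, the minor arms are the values that depth limits most.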

Other observations

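Another pair of miRNAs that come from shared primary transcripts also stood on opposite sides of 0 in CPM. It was picked after its values were seen and no test was run. miR-192-5p, which shares its core with miR-215, had 19470.3 CPM in the low RFI pool and 43451 in the high RFI pool, a log2 ratio of -1.16. miR-194-5p, encoded beside miR-192 and miR-215, had 4405 CPM in the low RFI pool and 2497 in the high RFI pool, a log2 ratio of 0.82. That lies close to the median of 0.77 over all 1063 groups. The shifts of -0.66 with TMM and -0.69 with DESeq2 factors bring miR-194-5p near 0. By contrast, miR-451 and miR-144-3p, from a shared erythroid transcript, were both lower in low RFI, with log2 ratios of -1.02 and -2.64. The value of miR-144-3p rests on 12 reads in the low RFI pool and 97 in the high RFI pool, a ratio of 0.161 (0.0803 to 0.294).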
